A study of Mus musculus with 10 samples.

Results

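The interleukin-1 (IL-1) family and the inflammasome were followed in mouse liver isolates enriched for sinusoidal endothelial cells, the fenestrated cells that line hepatic sinusoids, after a CDAA diet or a control diet. The genes were taken by symbol from a list of 10: the ligands Il1a, Il1b, Il18 and Il33, the inhibitors Il1rn and Il18bp, the receptors Il1r1 and Il1rl1, and the inflammasome genes Nlrp3 and Casp1. Of these, 9 had a probe set named in the platform annotation, among 24704 named genes on the array. Il1rl1, the IL-33 receptor, had no named probe set and is not analysed here. All mice were female C57BL/6N animals aged 10 weeks at the start and fed for 10 weeks (a label field gives days in place of weeks). The CDAA group received a CDAA diet with 31% of calories from fat and 1% cholesterol. In liver research CDAA usually means choline-deficient and amino acid-defined. The control group, labelled Std, received a control diet. Neither group carried an engineered allele in its labels, although the series' design text speaks of Gata4 knockout mice, which are not analysed here. Each diet had 5 arrays, CDAA 1 to CDAA 5 and Std 1 to Std 5, and each array held RNA of cells pooled from 3 mice and bound to magnetic beads against CD146, so single animals were not resolved.

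IL-1α and IL-1β both bind the receptor encoded by Il1r1 and signal through MyD88 to NF-κB, which raises chemokines, adhesion molecules and prostaglandin synthesis. The receptor antagonist encoded by Il1rn occupies the same receptor without a signal, and IL-18 binding protein, encoded by Il18bp, captures IL-18. IL-1β and IL-18 are made as inactive precursors that caspase-1 cleaves after sensors such as NLRP3 assemble an inflammasome with the adaptor ASC. IL-1α and IL-33 are active without that cleavage and act as alarm signals of damaged cells. In the liver, macrophages and neutrophils are well known sources of IL-1β.

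Il1a and Il1b are neighbouring protein-coding genes on chromosome 2, and the stretches just upstream of their starts are shown because Il1b was called and Il1a was not (the difference between them was not tested), together with that of Il1rn, which had the widest difference of the 9 genes. The sequences are the 250 bases before the annotated start from RefSeq (build GRCm38.p6), 5′ to 3′ on the gene's strand, at chr2:129371140-129371389 (minus strand) for Il1b, chr2:129309973-129310222 (minus strand) for Il1a and chr2:24336610-24336859 (plus strand) for the first of 3 annotated starts of Il1rn. Capitals mark matches, on either strand, to TATAAA (the TATA box) and TGANTCA (the AP-1 motif).
Il1b: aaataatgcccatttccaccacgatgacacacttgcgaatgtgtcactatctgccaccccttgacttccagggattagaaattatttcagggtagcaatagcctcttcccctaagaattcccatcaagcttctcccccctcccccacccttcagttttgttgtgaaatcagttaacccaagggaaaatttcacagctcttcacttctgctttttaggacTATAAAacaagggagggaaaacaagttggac
Il1a: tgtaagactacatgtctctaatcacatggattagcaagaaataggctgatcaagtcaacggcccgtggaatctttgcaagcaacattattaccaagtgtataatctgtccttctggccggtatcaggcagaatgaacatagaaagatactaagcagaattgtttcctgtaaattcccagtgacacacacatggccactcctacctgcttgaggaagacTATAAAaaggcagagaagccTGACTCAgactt
Il1rn: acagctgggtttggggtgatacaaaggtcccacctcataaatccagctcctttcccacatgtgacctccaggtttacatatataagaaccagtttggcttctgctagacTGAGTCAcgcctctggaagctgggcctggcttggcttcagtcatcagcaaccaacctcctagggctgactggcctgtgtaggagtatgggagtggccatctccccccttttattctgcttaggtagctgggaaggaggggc
The TATAAA match lay 31 to 26 bases before the start in Il1b and 32 to 27 bases before it in Il1a. TGANTCA was matched 12 to 6 bases before the start of Il1a and 141 to 135 bases before that of Il1rn, and was not found in the Il1b window. Among 32851 promoter windows of the same length, 12.4% held TATAAA and 6.75% held TGANTCA. The 9 genes had 14 windows, of which 5, in 4 genes, held TATAAA and 2, in 2 genes, held TGANTCA. The NF-κB pattern (GGG, any 5 bases, CC), searched on both strands, was present in 5 of the 14 windows and in 45.8% of all windows. These belonged to 4 of the 9 genes, among them Il1rn, Nlrp3 and Casp1 but not Il1b. The PU.1 pattern GAGGAAG was found in 2 of the 14 windows, those of Il1a and Nlrp3, and in 10.6% of all windows. The C/EBP pattern TTGCNNAA was found in 3 of the 14 windows, in 3 of the 9 genes, and in 9.56% of all windows. A match is a description of these letters.

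The isolates expressed endothelial genes in both diets, with a mean over 10 LSEC markers of 10.39 to 11.41 in the CDAA pools and 11.87 to 12.01 in the Std pools, and 9 of these markers fell. They also held signal of other cells. All 8 measured cholangiocyte markers rose (list means of 7.41 to 8.28 with CDAA and 4.40 to 5.48 with Std), as did 6 of 10 markers of stellate cells and fibroblasts (6.63 to 8.21 with CDAA and 5.79 to 6.15 with Std). Of 7 measured hepatocyte markers 3 rose and 2 fell (list means of 7.24 to 8.30 with CDAA and 6.98 to 7.55 with Std). Among the risen ones Alb was at a mean of 11.90 with CDAA and 10.62 with Std. Among the fallen ones Cyp2e1 was at a mean of 6.69 with CDAA and 7.81 with Std. Of all genes, 7.49% rose and 9.13% fell by the limma test described below. Std 3 stood apart from all other arrays: the mean of 10 neutrophil markers was 5.48 to 6.37 in the CDAA pools, against 9.90 in Std 3 and 4.04 to 4.44 in the other Std pools. CDAA 1 and CDAA 3 differed from the other CDAA pools in endothelial and macrophage markers, as given with the values of each pool at the end. With bulk RNA, a change in the number of cells of a type cannot be told apart from a change of RNA per cell.

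With the CDAA diet, signal of Il1b, of its antagonist Il1rn and of the sensor Nlrp3 rose, Casp1 fell, and Il1a, Il18, Il18bp, Il33 and Il1r1 did not pass the test. Signals are log2 values from the authors' robust multi-array average, changes are CDAA minus Std throughout, and the test was limma over all 24704 genes with Benjamini-Hochberg adjustment at a threshold of 0.05. By this test 3 of the 9 genes rose and 1 fell, against 7.49% and 9.13% of all genes and 16.6% called in either direction. Without Std 3, the same 3 rose and the same 1 fell, against 7.06% and 7.91% of all genes and 15% called in either direction. The median change was 0.28 over the 9 genes and -0.02 over all genes, and without Std 3 it was 0.45 over the 9 genes and -0.02 over all genes. The 5 and 5 values did not overlap for 2 of the 9 genes, Il1rn and Casp1, against 13.9% of all genes.

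**Figure D1:**
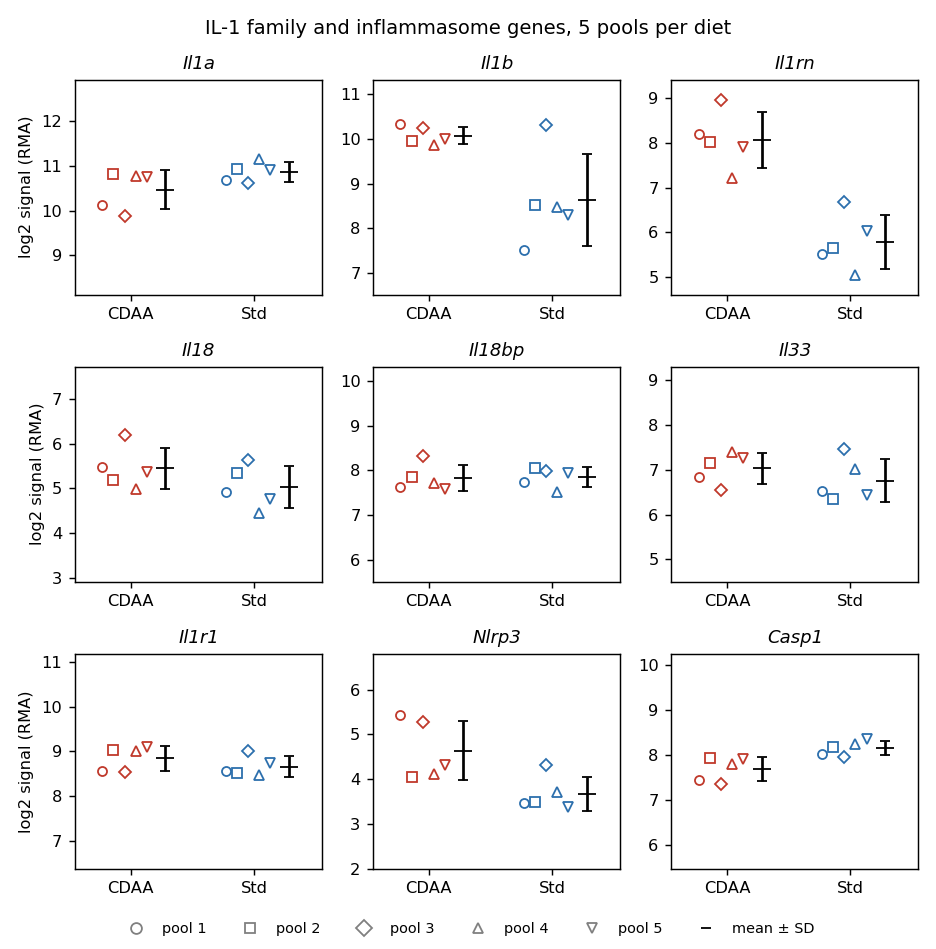
Log2 signal (y axis) of the 9 genes in each pool, CDAA on the left and Std on the right of every panel, with the mean ± SD in black. All panels span the same number of log2 units. The lowest CDAA pool of Il1rn sits above its highest Std pool, while Std 3 (diamond) reaches the CDAA level for Il1b.

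Among the ligands, Il1b (probe set 16176_at), the inflammasome-processed cytokine, was at 10.32, 9.96, 10.24, 9.86 and 9.99 in CDAA 1 to CDAA 5, against 7.52, 8.52, 10.32, 8.47 and 8.31 in Std 1 to Std 5. The CDAA pools lay close together and 4 of the 5 Std pools lay below all of them, but Std 3 was as high as the highest CDAA pool. The means were 10.07 ± 0.20 with CDAA and 8.63 ± 1.03 with Std (SD, n = 5 each), so Il1b rose by 1.44 ± 0.39 in log2 units (SE, limma adjusted p = 0.0233), a 2.72-fold signal. The difference was larger without Std 3, the pool with the high neutrophil markers, at 1.87 ± 0.20 (SE, limma adjusted p = 0.000167), a 3.65-fold signal against a Std mean of 8.21 ± 0.46 (SD, n = 4). With Std 3 kept, the call was lost when CDAA 1, Std 1, Std 4 or Std 5 was left out (changes of 1.38, 1.17, 1.41 and 1.36, limma adjusted p of 0.0563, 0.0521, 0.0565 and 0.0577).

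Il1a (16175_at), the alarm cytokine whose gene lies beside Il1b, was at 10.12, 10.82, 9.89, 10.78 and 10.74 in CDAA 1 to CDAA 5, against 10.69, 10.94, 10.62, 11.16 and 10.90 in Std 1 to Std 5. The groups overlapped, and CDAA 1 and CDAA 3 were the lowest of the 10 pools. The difference was -0.39 ± 0.19 (SE, limma adjusted p = 0.205), with a 95% interval of -0.80 to 0.02. Il33 (77125_at), a nuclear alarm cytokine of endothelial, epithelial and mesenchymal cells, was at 6.84, 7.15, 6.54, 7.40 and 7.26 in the CDAA pools, against 6.54, 6.34, 7.46, 7.02 and 6.44 in the Std pools. Here too the groups overlapped, and Std 3 was the highest pool of all. The difference was 0.28 ± 0.22 (SE, limma adjusted p = 0.482, 95% interval -0.21 to 0.77). Il18 (16173_at), the interferon-γ-inducing cytokine, was at 5.48, 5.19, 6.19, 4.99 and 5.36 with CDAA, against 4.91, 5.35, 5.63, 4.44 and 4.76 with Std. Its highest pool in each diet was the one numbered 3, and the difference of 0.42 ± 0.25 did not pass (SE, limma adjusted p = 0.304, 95% interval -0.12 to 0.96).

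Of the inhibitors, Il1rn rose and Il18bp did not pass. Il1rn (16181_at), the receptor antagonist, was at 8.20, 8.02, 8.96, 7.22 and 7.90 in CDAA 1 to CDAA 5, against 5.51, 5.64, 6.68, 5.06 and 6.04 in Std 1 to Std 5. The lowest CDAA pool stood above the highest Std pool, which was again Std 3. Means were 8.06 ± 0.63 with CDAA and 5.79 ± 0.61 with Std (SD, n = 5 each), and Il1rn rose by 2.28 ± 0.33 (SE, limma adjusted p = 0.000744), a 4.85-fold signal. It passed in all 20 other settings tried, with changes of 1.93 to 2.50 and limma adjusted p between 2.65e-05 and 0.00440. Some of these could change little: averaging probe sets, repeated quantile normalization and centring on array medians each gave 2.28. Il18bp (16068_at), the soluble trap of IL-18, was at 7.64, 7.86, 8.32, 7.73 and 7.59 in the CDAA pools, against 7.75, 8.06, 7.98, 7.52 and 7.94 in the Std pools. The ranges lay over each other, and the difference was -0.02 ± 0.15 (SE, limma adjusted p = 0.951, 95% interval -0.35 to 0.31); its sign changed with the setting.

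Whether a ligand and its inhibitor changed alike was asked from the difference of their log2 signals within each pool, with a two-sided exact permutation test over the 252 arrangements of the pools, adjusted over 3 pairs. Such a difference does not compare the amounts of the 2 transcripts. For Il1a minus Il1rn it was 1.92, 2.79, 0.92, 3.55 and 2.84 in CDAA 1 to CDAA 5, against 5.17, 5.30, 3.94, 6.10 and 4.86 in Std 1 to Std 5. Every CDAA pool lay below every Std pool. The balance was lower by 2.67 with CDAA (exact permutation p = 0.00794, the smallest that 5 against 5 can give, adjusted p = 0.0238), so the antagonist gained signal relative to Il1a. For Il1b minus Il1rn the mean was 2.01 ± 0.49 with CDAA and 2.84 ± 0.71 with Std (SD, n = 5 each). That difference of -0.83 did not pass (exact permutation p = 0.0635, adjusted p = 0.0635). For Il18 minus Il18bp the means were -2.39 ± 0.29 with CDAA and -2.83 ± 0.32 with Std (SD, n = 5 each), a difference of 0.44 that did not pass after adjustment (exact permutation p = 0.0476, adjusted p = 0.0635).

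**Figure D2:**
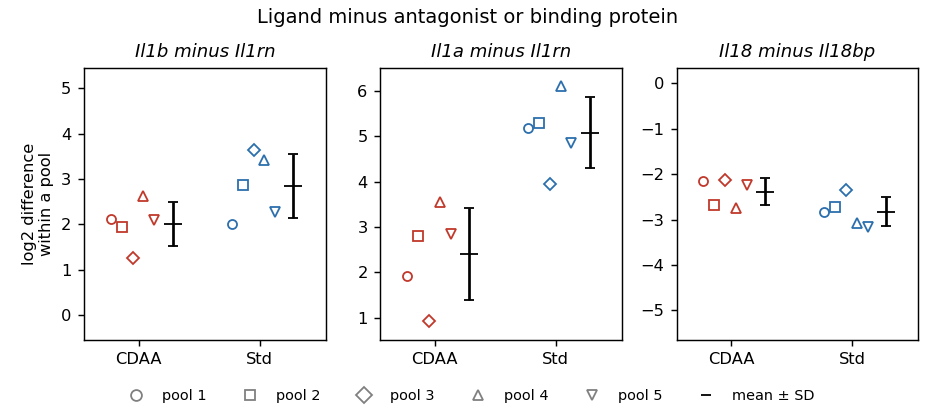
Difference of log2 signals within each pool (y axis) for 3 pairs of a ligand and its antagonist or binding protein, CDAA left of Std, with mean ± SD in black. For Il1a minus Il1rn the CDAA pools sit between 0.92 and 3.55 and the Std pools between 3.94 and 6.10, while the other pairs overlap.

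Of the receptors, Il1r1 (16177_at), which carries the IL-1 signal, was at 8.55, 9.03, 8.54, 9.02 and 9.09 in CDAA 1 to CDAA 5, against 8.56, 8.51, 9.02, 8.47 and 8.75 in Std 1 to Std 5. The groups overlapped, with a difference of 0.19 ± 0.15 (SE, limma adjusted p = 0.475, 95% interval -0.14 to 0.51). The neighbouring gene Il1r2, which encodes the decoy receptor that binds IL-1 without signalling, was at 7.40, 5.59, 7.39, 6.86 and 5.97 with CDAA, against 3.55, 3.34, 7.51, 3.29 and 3.03 with Std. As for Il1b, all CDAA pools lay above 4 of the Std pools, and Std 3 was the highest pool of all for Il1r2. Il1r2 rose by 2.50 ± 0.75 (SE, limma adjusted p = 0.0399) and by 3.34 ± 0.35 without Std 3 (SE, limma adjusted p = 0.000159). While Std 3 was kept, the call for Il1r2 was lost without CDAA 1, CDAA 3, CDAA 4, CDAA 5 or any other Std pool, at changes of 2.22 to 2.66, and with an intensity trend and robust variance in the fit (limma adjusted p = 0.0911). It was the 1 gene called among 8 other receptors of the family, against 16.6% of all genes called in either direction. The co-receptor Il1rap (difference -0.08, limma adjusted p = 0.790) and the IL-18 receptor chains Il18r1 (-0.07, limma adjusted p = 0.777) and Il18rap (-0.31, limma adjusted p = 0.713) did not pass. In both diets their means lay below the array median of 3.89, and whether they were above background is not known. For Il18rap, Std 3 stood at 5.66, above all other pools. Of 5 further ligands and antagonists of the family, the IL-36 genes and Il1f10, none passed with all arrays, against 16.6% of all genes. Il1f10 had the smallest p among them, with a change of 0.25 (limma adjusted p = 0.377).

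In the inflammasome, Nlrp3 (216799_at), the sensor of membrane and lysosomal damage, was at 5.43, 4.04, 5.29, 4.12 and 4.31 in CDAA 1 to CDAA 5, against 3.48, 3.49, 4.31, 3.70 and 3.37 in Std 1 to Std 5. CDAA 1 and CDAA 3 stood more than 0.9 above the other pools and Std 3 reached the level of CDAA 5, while the other 4 Std pools were below the array median. Nlrp3 rose by 0.97 ± 0.29 (SE, limma adjusted p = 0.0370), a 1.96-fold signal. The call was lost without CDAA 1 (0.77, limma adjusted p = 0.0817) or CDAA 3 (0.81, limma adjusted p = 0.0819), and without Std 1, Std 2, Std 4 or Std 5 (0.89 to 0.98). Without Std 3 it held (1.13 ± 0.28 SE, limma adjusted p = 0.0195).

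Casp1 (12362_at), the protease that matures IL-1β and IL-18, went the other way. It was at 7.44, 7.94, 7.36, 7.79 and 7.91 in CDAA 1 to CDAA 5, against 8.03, 8.18, 7.96, 8.24 and 8.36 in Std 1 to Std 5. The groups did not overlap, by a gap between CDAA 2 and Std 3, and the lowest pools were again CDAA 1 and CDAA 3. Means were 7.69 ± 0.27 with CDAA and 8.16 ± 0.16 with Std (SD, n = 5 each), and Casp1 fell by 0.47 ± 0.14 (SE, limma adjusted p = 0.0339). The call was lost when CDAA 1, CDAA 3, Std 1, Std 2, Std 4 or Std 5 was left out, at changes of -0.50 to -0.38 and limma adjusted p of 0.0520 to 0.0838.

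**Figure D3:**
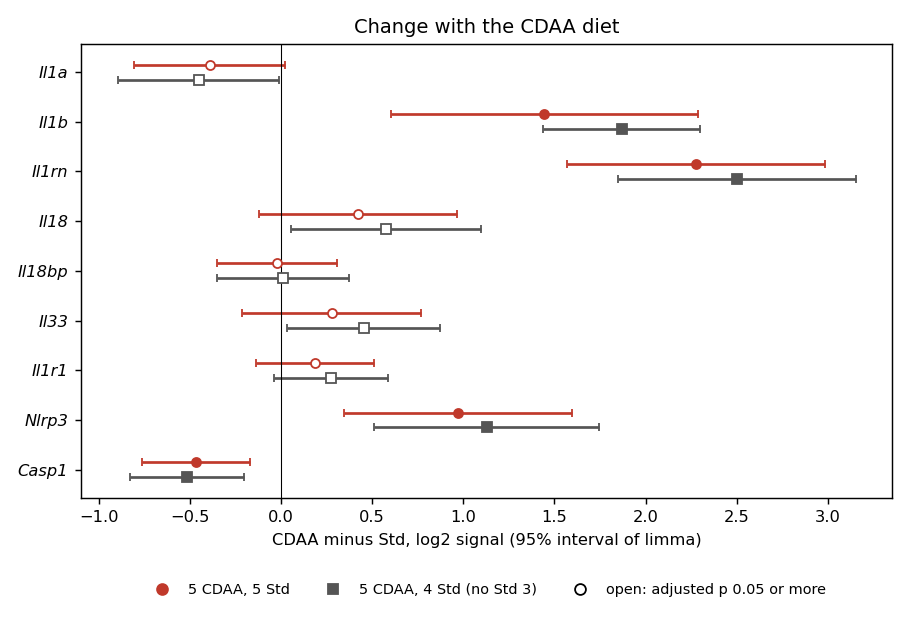
CDAA minus Std difference in log2 signal (x axis) for each gene with its 95% interval from limma, over all 10 arrays (circles) and without Std 3 (squares). Filled symbols passed the threshold. Il1b, Il1rn and Nlrp3 lie to the right of 0 and Casp1 to the left in both fits, and the interval of Il1b is narrower without Std 3.

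Of 22 further genes of inflammasomes and pyroptosis with a probe set, 1 rose and 6 fell, against 7.49% and 9.13% of all genes. Their median change was -0.10 with all arrays and 0.04 without Std 3, which turns its sign, while the counts of 1 and 6 were the same in number. The falls were led by Gbp5, a guanylate-binding protein that promotes NLRP3 assembly, at 5.26 ± 0.47 with CDAA and 6.02 ± 0.14 with Std (SD, n = 5 each), which fell by 0.76 ± 0.19 (SE, limma adjusted p = 0.0185). Its call was lost without Std 1, its highest pool (-0.70, limma adjusted p = 0.0520). Txnip, a thioredoxin-binding protein linked to NLRP3 activation, fell by 0.70 ± 0.14 (SE, limma adjusted p = 0.00429), and Casp8, the initiator caspase of death receptors, by 0.69 ± 0.15 (SE, limma adjusted p = 0.00864). Naip2 and Naip6, sensors of bacterial proteins, and the ATP-gated channel gene P2rx4 also fell, by 0.66, 0.67 and 0.40. The gene that rose was Panx1, which encodes an ATP-releasing channel, by 0.62 (limma adjusted p = 0.0221). Without CDAA 1 and CDAA 3 the calls of Casp8 (-0.51, limma adjusted p = 0.0503), Naip2 (-0.57, limma adjusted p = 0.0870) and Panx1 (0.35, limma adjusted p = 0.0790) were lost. The adaptor gene Pycard, which encodes ASC (0.28, limma adjusted p = 0.328), the pore-forming Gsdmd (-0.08, limma adjusted p = 0.771) and Casp4, the neighbour of Casp1 and sensor of lipopolysaccharide (-0.16, limma adjusted p = 0.664), did not pass.

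Among 19 measured genes of the MyD88 and NF-κB pathway 3 rose and 2 fell, against 7.49% and 9.13% of all genes, with a median change of 0.08. The feedback inhibitors Tnfaip3 and Nfkbia rose by 1.29 ± 0.40 (SE, limma adjusted p = 0.0453) and 0.58 ± 0.18 (SE, limma adjusted p = 0.0490), and the kinase gene Irak2 by 0.52 (limma adjusted p = 0.0257). Tnfaip3 was at 9.53 and 8.75 in CDAA 1 and CDAA 3 and at 6.99 to 7.79 in the other CDAA pools, against 6.45 to 7.13 in the Std pools. Leaving out CDAA 1 and CDAA 3 together took Tnfaip3 to 0.58 and Nfkbia to 0.29, and neither passed (limma adjusted p = 0.0916 and 0.188). In all, the Tnfaip3 call was lost in 12 and the Nfkbia call in 10 of 20 other settings, for Tnfaip3 also without Std 3 (1.37, limma adjusted p = 0.0540). Irak3, a kinase-like inhibitor of the IL-1 receptor complex, fell by 0.74 ± 0.13 (SE, limma adjusted p = 0.00215), with all CDAA pools below all Std pools, and Tollip, another inhibitor of that complex, fell by 0.48 (limma adjusted p = 0.0285). Without CDAA 1 and CDAA 3 the calls of Irak2 (0.35, limma adjusted p = 0.139) and Tollip (-0.32, limma adjusted p = 0.121) were lost too, and that of Irak3 held (-0.64, limma adjusted p = 0.0157). Myd88, the shared adaptor, was at 8.11 ± 0.29 with CDAA and 8.10 ± 0.23 with Std (SD, n = 5 each, limma adjusted p = 0.980).

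Of 14 genes known to respond to IL-1, 6 rose and none fell, against 7.49% and 9.13% of all genes, with a median change of 1.09. These genes also respond to other stimuli, and several are expressed by macrophages and neutrophils. Cxcl2, a chemokine that attracts neutrophils, was at 9.87, 7.27, 9.36, 8.13 and 7.88 in CDAA 1 to CDAA 5, against 3.91, 4.12, 7.99, 4.66 and 3.45 in Std 1 to Std 5. Std 3 was the single Std pool within the CDAA range, and Cxcl2 rose by 3.68 ± 0.77 (SE, limma adjusted p = 0.00692). The call was lost without CDAA 1 and CDAA 3, its highest pools (2.93, limma adjusted p = 0.0541). Ptgs2, the inducible enzyme of prostaglandin synthesis, was at 7.93 ± 0.43 with CDAA and 5.42 ± 0.93 with Std (SD, n = 5 each) and rose by 2.51 ± 0.38 (SE, limma adjusted p = 0.00101). The monocyte chemokine Ccl2 rose by 1.66 ± 0.29, and Cxcl5, the endothelial selectin Sele and the adhesion molecule Vcam1 rose by 1.41, 1.40 and 0.77. Il6, Csf2 and Csf3 had means of 2.36, 2.43 and 3.33 with CDAA and of 2.43, 2.56 and 3.43 with Std, all below the array median, and did not pass. Lcn2, an iron-binding protein of neutrophils and stressed cells, was at 12.90 in Std 3, 9.66 to 10.49 with CDAA and 5.20 to 6.69 in the other Std pools, and differed by 2.49 without passing (limma adjusted p = 0.163). It passed without Std 3 (3.82 ± 0.29 SE, limma adjusted p = 2.80e-05).

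**Figure D4:**
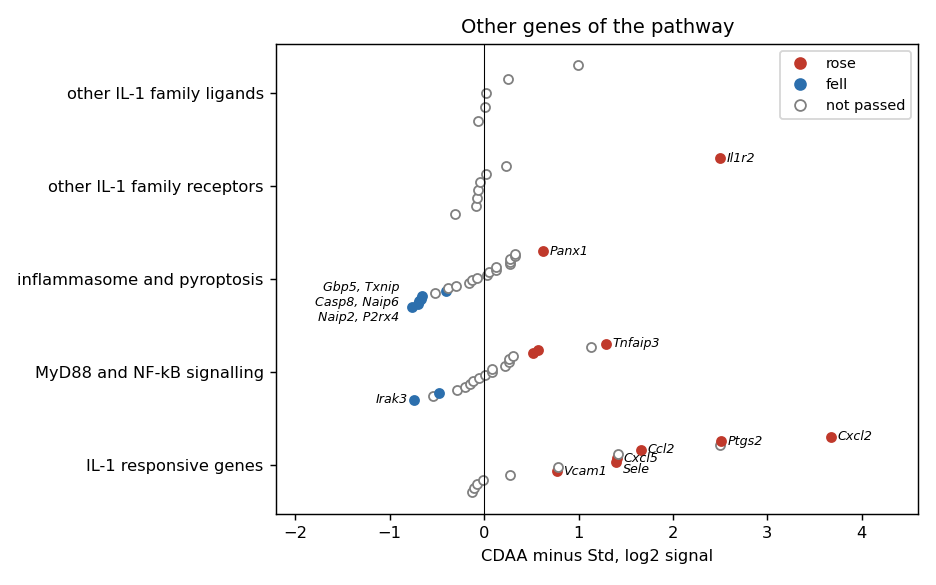
CDAA minus Std difference in log2 signal (x axis) of every measured gene in 5 lists of the pathway, red where it rose, blue where it fell and open where it did not pass. The rises reach 3.68 for Cxcl2 among IL-1 responsive genes, while the 6 falls among inflammasome genes lie between -0.76 and -0.40.

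Within the CDAA group the genes sorted the pools in opposite ways. CDAA 1 and CDAA 3 had the highest CDAA signals of Il1b, Il1rn, Il18 and Nlrp3 and the lowest of Il1a, Il33, Il1r1 and Casp1. For Nlrp3 they stood at 5.43 and 5.29, against 4.04 to 4.31 in the other CDAA pools, and for Il1r1 at 8.55 and 8.54, against 9.02 to 9.09. The same pools had the lowest mean of 12 pan-endothelial markers, 10.32 and 9.96, against 10.69 to 11.02 in the other CDAA pools, with 11.27 to 11.42 in Std. They also had the highest mean of 9 recruited macrophage markers, 9.51 and 9.74, against 8.26 to 8.67 in the other CDAA pools, with 5.19 to 6.03 in Std. Of the macrophage markers 8 of 9 rose, and of the pan-endothelial markers 9 of 12 fell, against 7.49% and 9.13% of all genes. Of 10 Kupffer cell (resident macrophage) markers 6 fell, and the other 4, C1qa, C1qb, Adgre1 and Cd5l, differed by 0.79, 0.69, 0.56 and 0.18 without passing, with list means of 7.80 to 8.65 with CDAA and 8.49 to 9.58 with Std. None of the 10 neutrophil markers passed with all arrays. Without Std 3, 9 of them rose, but that array was set apart by these same markers, so the rises are no separate result. Markers of group 2 innate lymphoid cells, which respond to IL-33, had means of 4.12 to 4.44 with CDAA and 3.53 to 3.80 with Std, and 1 of 6 measured genes, Il7r, rose, by 2.65. The median change of that list was 0.06, and its other 5 genes did not pass, with Gata3, Klrg1, Il5 and Il13 between -0.04 and 0.08. Mast cell and basophil markers had list means of 2.41 to 2.69 with CDAA and 2.45 to 2.68 with Std, below the array median. Mcam, which encodes the bead target CD146, was at 9.66 ± 0.34 with CDAA and 9.54 ± 0.10 with Std (SD, n = 5 each). It did not pass with all arrays (0.12, limma adjusted p = 0.664). Without CDAA 1 and CDAA 3 Mcam rose by 0.35 (limma adjusted p = 0.0499), and without Std 3 as well by 0.38 (limma adjusted p = 0.0406). However, CDAA 1 and CDAA 3 had the lowest Mcam signals of the CDAA pools (9.54 and 9.12). Std 3 had the highest of the Std pools (9.67). Both calls thus depend on which pools were left out. The part of these cell types in the changes of the IL-1 genes was not tested.

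**Figure D5:**
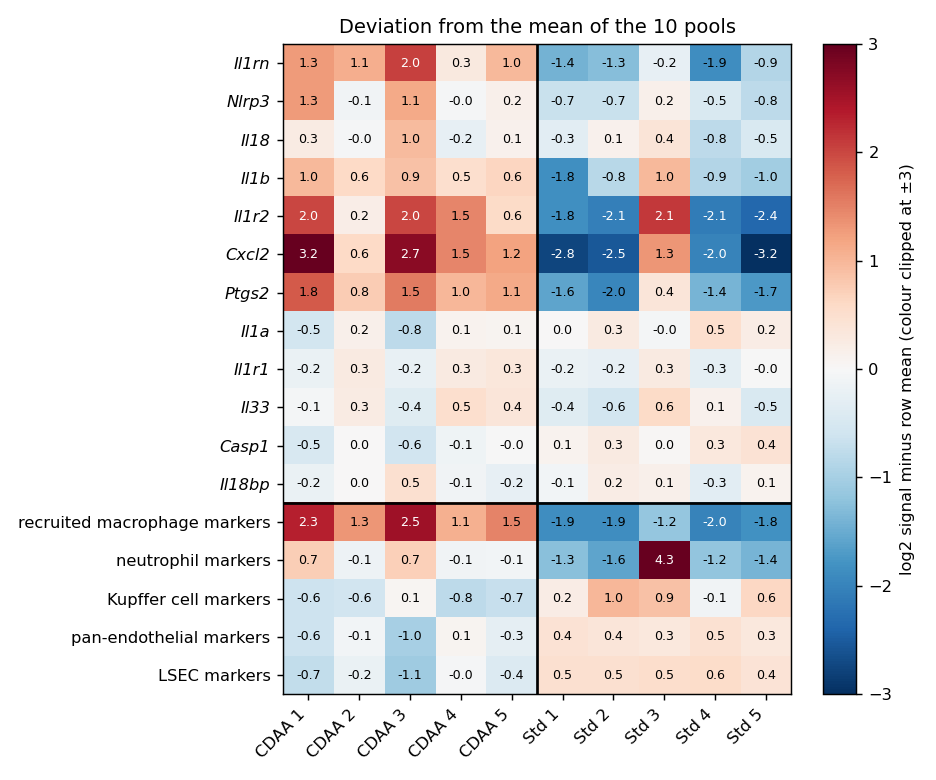
Log2 signal of each gene or marker mean (rows) in each pool (columns, CDAA left of Std), as the deviation from its mean over the 10 pools; colours are clipped at 3 either way. Il1b, Il1r2 and Cxcl2 are high in Std 3, where the neutrophil markers peak, and Il1a, Il1r1, Il33 and Casp1 are lower in CDAA 1 and CDAA 3 than in the other CDAA pools, as are the endothelial markers.

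Without CDAA 1, CDAA 3 and Std 3, a setting chosen after the values were seen, Il1b and Il1rn rose by 1.73 and 2.15 (limma adjusted p = 0.00112 and 0.000655) and Nlrp3 by 0.65 (limma adjusted p = 0.00765). In that setting Il33 and Il1r1 also rose, by 0.69 and 0.48 (limma adjusted p = 0.0253 and 0.0203), and Casp1 did not pass (-0.32, limma adjusted p = 0.103). Il1a, which is the neighbour of Il1b, differed by -0.14 there (limma adjusted p = 0.548). For Il33 and Il1r1 the pools left out were the lowest CDAA pools and the highest Std pool. For Casp1 they were the lowest pools of each diet. The calls and p-values of these genes therefore follow in part from that choice and are no separate support. The 3 CDAA and 4 Std pools of this setting had pan-endothelial means of 10.69 to 11.02 and 11.28 to 11.42. With CDAA 1 and CDAA 3 left out but Std 3 kept, the call of Il1rn alone held among the 9 genes (1.93, limma adjusted p = 0.00440), and Il1b differed by 1.31 (limma adjusted p = 0.118).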

How the data were processed

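Values were log2 signals of 25428 probe sets on 10 arrays, which the authors computed by RMA, a method named in the submitters' processing notes; its version, the array design and the build are not given in the sources used here. RMA brings all arrays to one distribution, so a change is relative to the array as a whole. CDAA 1 held 24921 distinct values, against 10080 in each of the other arrays, and the reason for this was not tested. The number of arrays limits the precision, and no detection call was used. Gene names came from GEO's platform annotation (24705 with 1 symbol, 723 unnamed here), and the brightest probe set was kept where a gene had several, giving 24704 genes. Of the list genes, 4 IL-36 genes were matched through older symbols. Arrays were grouped by their titles, and the labels call them biological replicates. The p-values weigh the difference between diets against the spread between pools. The 2 diets were compared by a two-sided limma fit (version 3.58.1, R 4.3.3; lmFit, then eBayes). The members and lists were chosen with earlier results of these data known. The text names all members, up to 3 called genes per pathway list by size of change (without any, that with the smallest p), and Il1rap, Il1r2, Il18r1, Il18rap, Pycard, Gsdmd, Myd88 and Mcam. Casp4, Naip2, Naip6, P2rx4, Panx1, Irak2, Tollip, Cxcl5, Sele, Vcam1, Il6, Csf2, Csf3, Lcn2 and Il36g were chosen after their values were seen. So were the single marker genes of hepatocytes, Kupffer cells and group 2 innate lymphoid cells. Naip1, Irak4, Chuk and Nfkb1 had no named probe set. On simulated data with 200 of 24704 genes changed for this comparison, 19.5% of changes of 0.5, 83.5% of changes of 1 and 99% of changes of 2 were recovered. The simulated noise was normal with the same SD in both diets and held no outlying array such as Std 3. Its share of changed genes was far below the 16.6% called here. These rates therefore do not carry over directly to the real comparison.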

Additional observations from a re-analysis of the deposited data

Results flagged for a closer look

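In 10 of 80 groups of 5 arrays checked (27 named genes and 13 marker means in each diet), 1 array lay far from the others of its diet, a gap of more than 0.71 of the group's range, where chance gives about 1 in 20. Std 3 accounted for 6 of them. There Il1r2 was at 7.51 (next Std value 3.55), Cxcl2 at 7.99 (4.66), Ptgs2 at 7.04 (5.29), the IL-18 receptor chain gene Il18rap at 5.66 (3.38), the recruited macrophage marker mean at 6.03 (5.38) and the neutrophil marker mean at 9.90 (4.44). Gbp5 was at 6.27 in Std 1 (next 5.99). The Kupffer cell marker mean was 8.65 in CDAA 3 (next 8.02), the T and NK cell marker mean 5.33 in Std 5 (next 4.39) and the mesothelial marker mean 4.63 in CDAA 5 (next 4.99).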

How the results depend on the processing

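Over 20 other settings Il1rn kept its call and direction. Averaging probe sets, repeating the quantile normalization and centring on array medians could change little. The arrays already shared one distribution, and almost no gene had several probe sets. Il1b lost its call in 5 settings, Nlrp3 in 7 and Casp1 in 8, all of them settings that left out arrays. Leaving out each array in turn gave 2956 to 4572 genes called and 1 to 4 of the 9 members called, with 1 to 3 risen and 0 to 1 fallen. Without CDAA 1 and CDAA 3, 2612 genes passed, 1307 of them fallen, and 1 member was called, risen, with 0 fallen. Without these and Std 3 (chosen after seeing the data), 2689 genes passed, 1288 fallen, and 5 members rose with 0 fallen. These fits used fewer arrays. The replicate number as a block gave 4178 genes and 4 members called. Same-numbered arrays deviated together with correlations of 0.0164 to 0.249. The numbers were not taken as pairs, since the lowest of these is under 0.1 and no label ties them, although 6 of 10 arrays correlated best with their own number, a hint of pairing from the data. No member's call changed with the block. Il1a minus Il1rn was -2.01 without CDAA 1 and CDAA 3 and -2.29 without Std 3 as well, where too few pools remain to pass. Leaving out single arrays moved Il1b minus Il1rn between -1.04 and -0.63 and Il18 minus Il18bp between 0.36 and 0.56, and each passed in 2 such settings. Sign changes occurred in differences that did not pass. Il18bp ranged from -0.144 to 0.0372 over single arrays left out. Il18rap ranged from -0.50 to 0.19 and was 0.23 without the 3 arrays. Myd88 ranged from -0.0713 to 0.106, and was -0.176 without CDAA 1 and CDAA 3 and -0.0866 without the 3 arrays. Il1rap was 0.0278 and 0.0958 in these settings. Gsdmd ranged from -0.146 to 0.0050 over single arrays left out.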

Other observations

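Il36g, an epithelial and myeloid ligand of the IL-1 family that the annotation lists as Il1f9, was not called with all arrays (change 1.00 ± 0.81 SE, limma adjusted p = 0.485) but rose by 1.91 ± 0.36 (SE) without Std 3 (limma adjusted p = 0.00497). It was at 4.87 ± 0.86 with CDAA and 3.87 ± 2.05 with Std (SD, n = 5 each). Std 3 was at 7.53, against 2.79 to 3.17 in the other Std pools and 3.96 to 6.18 with CDAA. The call therefore rests on leaving out its highest pool.

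The genes whose pattern over the 10 arrays was most like that of each called member, by Pearson correlation after each diet's mean was subtracted, are given as a description; the arrays share the same diets, pools and normalization. For Il1b they were Gsr, glutathione reductase, the lactate transporter Slc16a3 and Tmem154 (r = 0.956, 0.951 and 0.946), which were at 0.836, 0.712 and 0.654 without Std 3. For Il1rn they were Nr1h3, the oxysterol receptor LXRα (r = 0.968), Ighv6-3 and Olfr906, and for Nlrp3 they were Vmn2r97, Myo5a and Krtap22-2 (r = 0.990, 0.975 and 0.975). Ighv6-3, Olfr906, Vmn2r97 and Krtap22-2 had means below the array median in both diets. For Casp1 they were Icam2, an endothelial adhesion molecule (r = 0.976), Taf4b and Gatad1. Of these 12 genes, Myo5a rose (1.57, limma adjusted p = 0.0112) and the other 11 did not pass.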
